A study of Urocitellus parryii with 24 samples.

Results

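The growth hormone receptor (GHR) and thyroid hormone receptor alpha (THRA) were followed in the liver of the Arctic ground squirrel (AGS), a hibernating rodent that lowers its metabolism and body temperature for days at a time, in bouts of torpor. They are 2 of 1329 genes whose symbols could be paired with a probe, among 9600 probes spotted as cDNA on nylon membranes. They were chosen as receptors of a pair of endocrine axes, and each was found by the match between the state means of its probe and those listed for its symbol. Liver RNA of 24 animals was hybridized, 1 membrane per animal. There were 4 animals early and 5 late in a torpor bout (T), 4 early and 4 late in an arousal episode (A), when body temperature returns to the warm range between bouts, and 7 summer active animals (P), which the study's methods describe as post-reproductive. All were trapped in the wild. The T and A animals went without food through hibernation, were kept in a short photoperiod, and had radio transmitters implanted in the abdomen. Season, food, photoperiod, and implant therefore cannot be told apart in comparisons with P. The T animals were killed without anesthesia and the A and P animals under isoflurane, so that anesthesia and torpor cannot be told apart. Ages are not given in the sources used here.

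Growth hormone, released by the pituitary, binds GHR on the hepatocyte. GHR is a type I cytokine receptor that signals through JAK2 and STAT5 and drives the liver's output of insulin-like growth factor 1. Thyroid hormone acts through nuclear receptors that bind DNA, of which THRA and THRB are the known genes. THRB is the more abundant form in the liver of most mammals, and THRA in heart and bone. A cDNA spot reads the summed signal of the transcripts that hybridize to it. The receptor and non-receptor splice forms of THRA, and any related transcript that binds the spot, were therefore not separated.

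GHR was read by a clone from a liver library and THRA by a clone from a heart library, each by 1 spot per membrane. Where several probes shared a symbol, the study kept the probe with the smallest p over the states. The probe of either receptor may thus have been picked for its difference. Whether the membranes held other clones of GHR or THRA was not examined. Levels are given as log2 of the background-subtracted signal over the median of the same quantity on that array, so that 0 is the array's median and a step of 1 is a doubling. Levels of different spots are not compared, since they depend on the clone. The GHR spot lay between 8.59 and 30.4 times its local background and the THRA spot between 3.10 and 9.76 times, and neither was marked as empty or saturated on any array. In the RefSeq annotation of the species, GHR lies between CCDC152 and FBXO4 and THRA between MED24 and NR1D1. Annotated overlap was looked for only with FBXO4 and NR1D1, and none was found. THRA has 1 annotated transcript, so overlap of forms that are not annotated was not covered.

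The membranes came from 2 filter sets, A1 and A2, as named in the scanner files. A1 carried all of T (9 animals), 7 animals of A, and 2 of P. A2 carried the other 5 animals of P and 1 in late arousal. The main differences of GHR and THRA from P are therefore given also from a fit with a filter set block and on A1 membranes alone, and those of other genes with the block where it bears on a call. With the block, 20.1% of probes differed between A2 and A1 (limma, adjusted p under 0.05). Array median signals were 72.8 to 114 in T, 84.3 to 132 in A, and 54.1 to 91.9 in P. Of the 19 hepatocyte markers listed, 12 were paired, and all 12 gave a signal above local background on every array.

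GHR was lower during hibernation than in summer over all membranes, without regard to filter set. In early torpor the 4 levels were 1.27, 1.13, 1.02, and 1.37. In late torpor the 5 levels were 1.55, 0.90, 0.996, 1.73, and 1.91. Early torpor thus spanned a narrow range inside that of late torpor. In early arousal the levels were 1.04, 1.43, 0.61, and 0.21. In late arousal they were 0.30, 1.73, 1.82, and 0.25, a split into a low pair and a high pair. One of the high pair, replicate 2, was the animal on an A2 membrane, and the other was on A1. The 7 P animals ranged from 1.31 to 3.52 with a median of 2.24. All 9 T levels and all 8 A levels lay below the P mean. The ranges overlapped, and 5 of 9 T animals and 5 of 8 A animals lay below the lowest P animal.

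**Figure D1:**
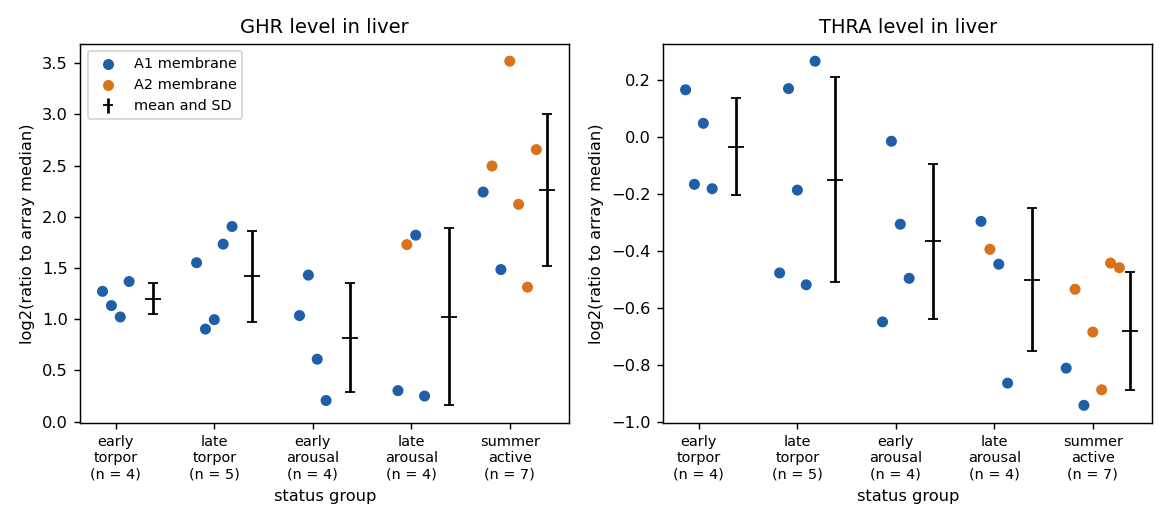
Levels of GHR and THRA in the liver of each animal, as log2 of the ratio to the array median, in the 5 status groups. Points are animals, blue on A1 and orange on A2 membranes, and the bars give mean and SD. GHR was highest in summer active animals, at up to 3.52, and THRA lowest there, at down to -0.94, and 5 of those 7 animals were on A2 membranes.

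Over the 3 states, GHR differed with a moderated F-test at an adjusted p of 0.00912 (limma), as did 11.5% of probes. GHR was under-expressed in A relative to P by 2.53-fold, with a log2 difference of -1.34 ± 0.29 (SE, n = 8 and 7, 95% interval -1.93 to -0.75, limma adjusted p = 0.00503). At this threshold 5.85% of all probes were lower in A than in P. GHR was also under-expressed in T by 1.92-fold, at -0.94 ± 0.28 (SE, n = 9 and 7, limma adjusted p = 0.0330), where 4.35% of probes were lower. Between T and A the difference of 0.40 ± 0.27 did not pass (limma adjusted p = 0.547, 95% interval -0.16 to 0.95). Quantile normalization, which gives all arrays the same distribution, left GHR at -1.18 in A (limma adjusted p = 0.0150) and -0.88 in T (limma adjusted p = 0.0421). Over all probes it moved the number higher in A from 251 of 813 called to 293 of 576, and between T and A the number higher in T from 37 of 45 to 4 of 17. The 1329 genes with symbols were selected by the study for a difference between states on these same arrays. So was the probe, where a gene had several. These differences and p-values are therefore not independent evidence for either receptor.

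The decrease of GHR was smaller in size when membranes were matched. With a filter set block, the difference of A and P was -0.93 ± 0.34 (limma adjusted p = 0.181) and that of T and P was -0.44 ± 0.36 (limma adjusted p = 0.756). On A1 membranes alone, the differences were -1.06 ± 0.37 for A (limma adjusted p = 0.227) and -0.54 ± 0.36 for T (limma adjusted p = 0.783), both with 2 P animals. Those P animals had GHR levels of 2.24 and 1.49. The first lay above all T and A animals on A1, and the second inside the T range. Neither call of GHR was therefore kept within a filter set, although the intervals for A, -1.62 to -0.24 with the block and -1.82 to -0.29 on A1, lay below 0. GHR itself was 0.70 ± 0.34 higher on A2 than on A1 in the block fit, which did not pass (limma adjusted p = 0.158). Among the 7 P animals, the mean was 2.42 ± 0.80 (SD, n = 5) on A2 and 1.86 on A1 (n = 2), a difference of 0.56 (exact permutation test of the 21 splits, 2-sided p = 0.429, smallest possible p = 0.0476).

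The T and P difference of GHR also depended on single animals. It kept an adjusted p under 0.05 in 16 of 24 fits that left out 1 array (limma), and in the other 8 the adjusted p was 0.0506 to 0.0957. The highest of these came without summer active replicate 4, the animal at 3.52, where the difference was -0.73. The other 7 were early torpor replicates 2 and 3, late torpor replicates 2 and 3, and summer active replicates 2, 5, and 7. The A and P difference passed in all 24 such fits, from -1.13 to -1.50. Animal identifiers beginning with 04 belong to 7 of 9 T, 7 of 8 A, and 1 of 7 P animals. The labels do not say what this prefix stands for. With the prefix as a block, GHR stood at -1.47 ± 0.37 in A (limma adjusted p = 0.0322) and at -1.06 ± 0.35 in T (limma adjusted p = 0.0688).

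THRA moved in the other direction between torpor and summer. In early torpor the levels were 0.16, -0.17, 0.05, and -0.18. In late torpor they were -0.48, 0.17, -0.19, -0.52, and 0.26. In early arousal they were -0.65, -0.02, -0.31, and -0.50. In late arousal they were -0.30, -0.40, -0.45, and -0.87. The P animals ranged from -0.94 to -0.44 with a median of -0.69. All 9 T levels lay above the P mean, and 7 of 9 lay above the highest P animal. The A animals stood between, with 7 of 8 above the P mean and 4 of 8 above every P animal. The 4 early torpor animals overlapped neither with P nor with late arousal. The share of all probes that separate these small groups was not counted, so this is a description only.

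THRA was over-expressed in T relative to P by 1.5-fold, with a log2 difference of 0.58 ± 0.15 (SE, n = 9 and 7, 95% interval 0.28 to 0.88, limma adjusted p = 0.0130). At this threshold 5.5% of all probes were higher in T than in P. The difference of A and P was 0.25 ± 0.15 (limma adjusted p = 0.308), and stood at 0.36 ± 0.18 in the block fit (limma adjusted p = 0.430) and 0.44 ± 0.24 on A1 (limma adjusted p = 0.553). That of T and A was 0.34 ± 0.14 (limma adjusted p = 0.272). The F-test over the states gave an adjusted p of 0.0248 (limma). With the study's own procedure, which takes Storey's q over the 3 states and Tukey's honestly significant difference between pairs, T and A also differed, and it called 6.22% of probes against 0.469% by limma.

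Matching membranes did not make the THRA difference smaller. It was 0.72 ± 0.20 with a filter set block (limma adjusted p = 0.0744) and 0.78 ± 0.24 on A1 membranes alone (limma adjusted p = 0.181), so it did not pass in either. On A1 all 9 T animals lay above both P animals, at -0.81 and -0.94, and the share of all probes separating likewise was not counted. In those fits 0.969% and 0.896% of probes were called between T and P. THRA was 0.19 ± 0.19 higher on A2 than on A1 in the block fit (limma adjusted p = 0.521). Among P animals its mean was -0.60 ± 0.19 (SD, n = 5) on A2 and -0.88 on A1 (n = 2), with a 2-sided p of 0.143 in the exact permutation test. The T and P call was kept in all 24 fits that left out 1 array, with adjusted p from 0.00916 to 0.0345 (limma). The identifier prefix changed it more than the membranes did. With the prefix as a block, the T and P difference was 0.36 ± 0.16 (limma adjusted p = 0.184) and that of A and P was -0.01 ± 0.18. Within T, THRA averaged -0.03 in the 7 animals with the 04 prefix and -0.35 in the other 2. Within P, the only 04 animal stood at -0.46 and the other 6 averaged -0.72.

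**Figure D2:**
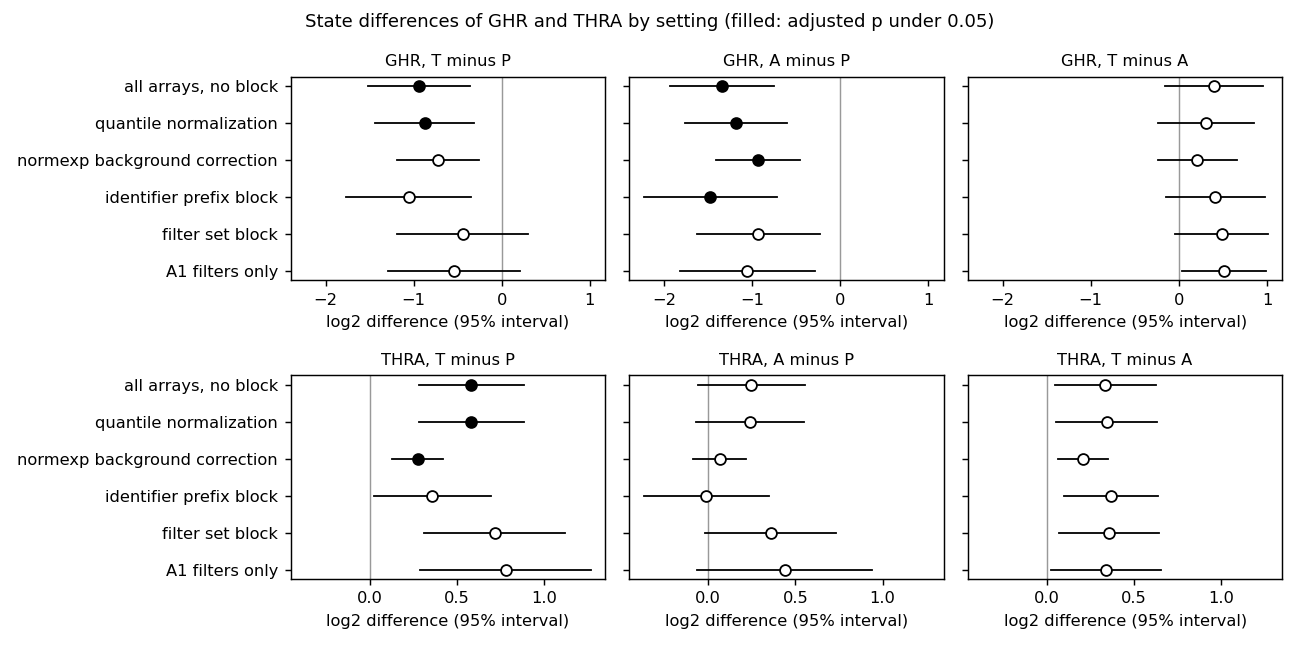
Log2 differences of GHR and THRA between states with 95% intervals, for all arrays and 5 other settings. Filled points have an adjusted p under 0.05 (limma). GHR in A minus P went from -1.34 to -0.93 with a filter set block, and THRA in T minus P from 0.58 to 0.72, and neither point was filled with that block.

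Over the 5 status groups, GHR was lowest in early arousal, at 0.82 ± 0.53 (SD, n = 4). The means then ran through late arousal at 1.03 ± 0.87 (n = 4), early torpor at 1.20 ± 0.15 (n = 4), late torpor at 1.42 ± 0.45 (n = 5), and P at 2.26 ± 0.74 (n = 7). No neighbours in that order passed (limma). The nearest were late torpor and P, whose difference had an interval of -1.53 to -0.15 and an unadjusted p of 0.0184 (limma). Of the 10 pairs of groups, early arousal against P alone passed, at -1.44 ± 0.36 (limma adjusted p = 0.0154, with 8.86% of probes called). It did not pass with a filter set block, at -0.95 (limma adjusted p = 0.345), or on A1 alone, at -1.04 (limma adjusted p = 0.297). Late arousal stood -1.24 ± 0.36 from P (limma adjusted p = 0.0915), early torpor -1.06 ± 0.36 (limma adjusted p = 0.0945), and late torpor -0.84 ± 0.33 (limma adjusted p = 0.138). In the block fit these were -0.92, -0.57, and -0.35.

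For THRA, P stood at the other end of the order. It was lowest at -0.68 ± 0.21 (SD, n = 7), followed by late arousal at -0.50 ± 0.25 (n = 4), early arousal at -0.37 ± 0.27 (n = 4), late torpor at -0.15 ± 0.36 (n = 5), and early torpor at -0.03 ± 0.17 (n = 4). None of the 10 pairs passed for THRA, and 3 had an unadjusted p under 0.05. The nearest were early torpor against P at 0.65 ± 0.19 (limma adjusted p = 0.0541, with 3.08% of probes called) and late torpor against P at 0.53 ± 0.17 (limma adjusted p = 0.0735). Early and late stages differed by -0.22 ± 0.38 in torpor and -0.20 ± 0.40 in arousal for GHR, and by 0.12 ± 0.20 and 0.13 ± 0.21 for THRA. The intervals of these stage differences, -1.01 to 0.57 for GHR in torpor and -0.29 to 0.52 for THRA in torpor, leave room for changes as large as some of those seen between states.

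No relation between the levels of both receptors was detected across animals. Pearson's r was -0.23 and Spearman's rho -0.31 over the 24 arrays (permutation p = 0.277 and 0.138, adjusted over 6 relations 0.892 and 0.827), and r was -0.14 without the 2 arrays farthest from the median of GHR. Within states, r was -0.23 in T (n = 9, exact permutation p = 0.549), 0.35 in A (n = 8, exact permutation p = 0.407), and 0.14 in P (n = 7, exact permutation p = 0.766). On the 18 A1 arrays r was 0.02 and rho -0.02 (permutation p = 0.926 and 0.940). Without the 2 arrays farthest from the median of GHR in each set, r was -0.65 in T (n = 7), 0.53 in A (n = 6), 0.87 in P (n = 5), and 0.16 on A1 (n = 16), so the values within states rest on few arrays.

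**Figure D3:**
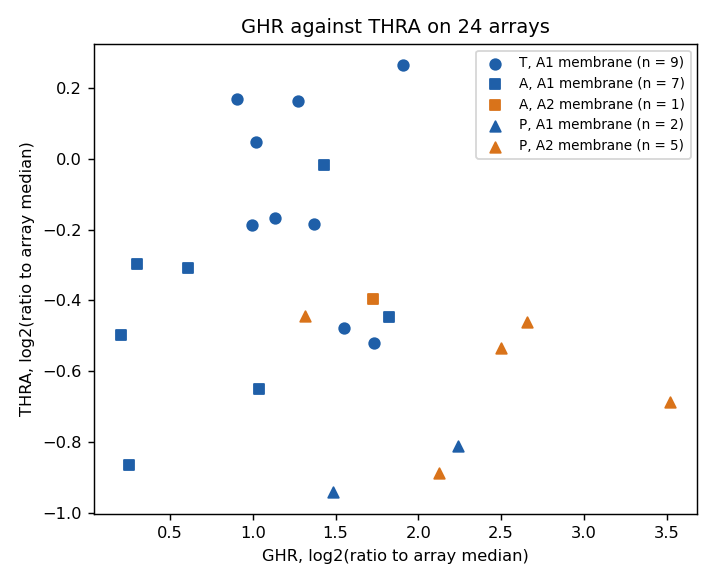
Level of GHR against that of THRA on the 24 arrays, both as log2 of the ratio to the array median, with states as marker shapes and filter sets as colours. The P animals lie to the lower right and the T animals higher on the THRA axis, and r was -0.23 over all arrays.

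The genes whose levels followed each receptor most closely were sought among 1311 paired genes measured on all arrays, after the mean of each state was removed. The 3 with the highest Pearson's r were taken, and those reported here are named. For GHR over 24 arrays these were ACADS, a mitochondrial enzyme of short-chain fatty acid oxidation (r = 0.76), and IL6ST, the shared signal chain of the interleukin 6 receptor family (r = 0.70). Over the 18 A1 arrays they were PET112L, LETMD1, and RAB6A, with r from 0.76 to 0.82. For THRA over 24 arrays they were EIF2C1, an Argonaute protein (r = 0.63), LOC100130553 (r = 0.60), and SSPN (r = 0.53), and on A1 arrays ARPC4, KCTD8, and NRP1, with r from 0.71 to 0.79. None of the 3 genes was shared by both sets of arrays for either receptor. Each was the highest of many correlations over arrays that share membranes and normalization, and is a description only. ACADS fell in A relative to P by 1.07 ± 0.23 on the log2 scale (limma adjusted p = 0.00531), and stood at -0.79 with a filter set block (limma adjusted p = 0.155). In T it was also lower, at -0.72 ± 0.23 (limma adjusted p = 0.0415), and stood at -0.38 with the block (limma adjusted p = 0.739).

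Of 60 genes listed for the growth hormone and insulin-like growth factor axis and its kinase pathway, 10 were paired. In A relative to P, 4 were lower, 1 was higher, and 5 did not pass, with a list median of -0.49 beside -0.05 over all probes and -0.27 over the 1329 paired genes. In T relative to P, 4 were lower and 2 higher, with a median of -0.08 beside -0.02. The study chose all of these genes on these arrays, so their counts are read beside those of the paired genes. Of the paired genes, 26.4% were lower and 12.1% higher in A, and 21.7% were lower and 25.6% higher in T. In the block fit none of the 10 passed in either comparison (limma), where 9.78% of paired genes did in A and 3.46% in T. The genes with an unadjusted p under 0.05 were then 5 in A and 2 in T.

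Below the receptor, FOXO3, a transcription factor that insulin signalling keeps out of the nucleus, fell most, with a difference of -1.35 ± 0.24 in T (limma adjusted p = 0.000908) and -1.26 ± 0.24 in A (limma adjusted p = 0.00219). GSK3A, a kinase of glycogen synthase, stood at -0.83 ± 0.21 in T (limma adjusted p = 0.0125) and -0.76 ± 0.21 in A (limma adjusted p = 0.0255). AKT1, the central kinase of the pathway, was higher in T by 0.65 ± 0.19 (limma adjusted p = 0.0339) and stood at -0.01 ± 0.20 in A. PDPK1, which activates AKT1, was higher in A by 0.71 ± 0.18 (limma adjusted p = 0.0150). IGFBP6, a binding protein of insulin-like growth factors, was higher in T by 0.71 ± 0.18 (limma adjusted p = 0.0136). FRAP1, now MTOR, and its downstream RPS6KB1 and RPS6 did not pass in either, with differences of -0.08 to 0.09 in T and -0.51 to -0.42 in A. With the block none of these calls was kept. FOXO3 then stood at -0.89 in T (limma adjusted p = 0.192) and -0.87 in A (limma adjusted p = 0.105), and GSK3A at -0.14 in T and -0.19 in A. AKT1 stood at 0.32 in T (limma adjusted p = 0.742), and at 0.10 on A1 alone (limma adjusted p = 0.969). PDPK1 stood at 0.30 in A (limma adjusted p = 0.538) and IGFBP6 at 0.72 in T (limma adjusted p = 0.211). IGFBP6, PDPK1, and FRAP1 were dim, with mean levels in P of -2.53, -2.29, and -1.89, so their differences rest on little signal.

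**Figure D4:**
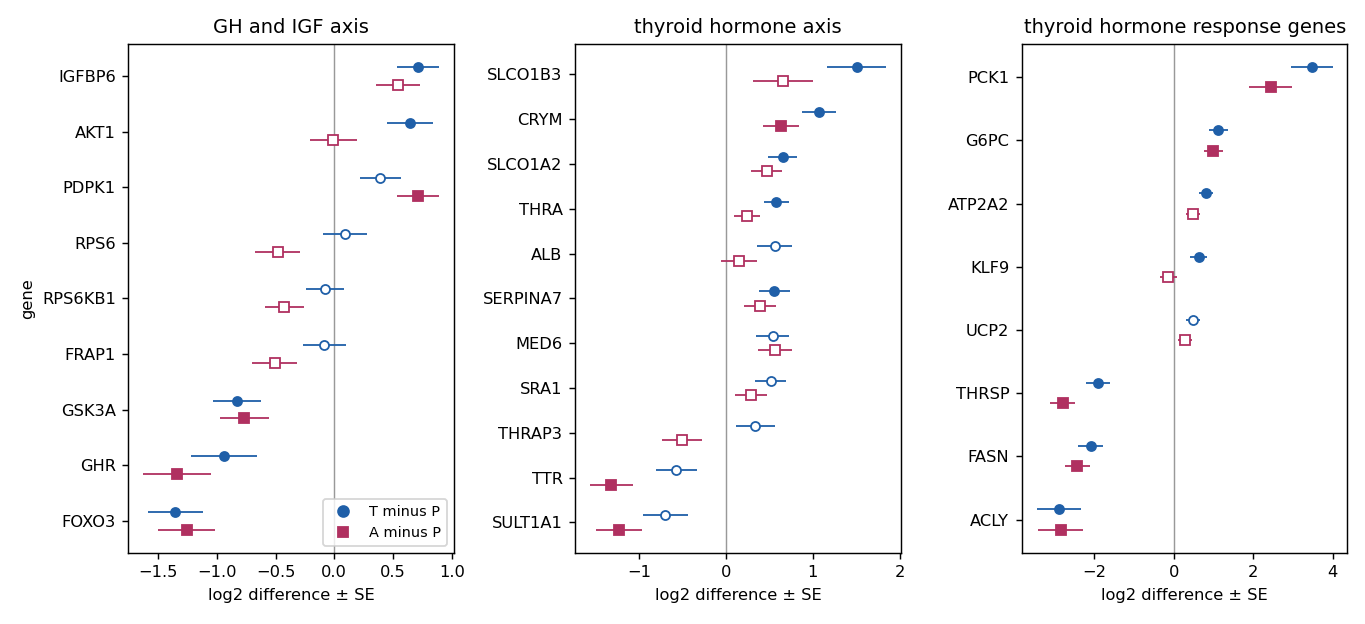
Log2 differences with SE for the paired genes of 3 lists, without a block, for T minus P (circles) and A minus P (squares). Filled symbols have an adjusted p under 0.05 (limma), and GPS2, which 2 A2 membranes did not measure, is left out, as are genes not reported here. In the thyroid hormone axis 5 genes were higher in T, and among response genes PCK1 rose by 3.48 and ACLY fell by 2.89 in T.

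Of 45 genes listed for the thyroid hormone axis, 12 were paired. In T relative to P, 5 were higher and none was lower, and the median was 0.56 beside -0.02 over all probes. In A relative to P, 1 was higher and 2 were lower. In T the 5 of 12 stand beside 25.6% of paired genes. In A, 12.1% of paired genes were higher and 26.4% lower. In the block fit 2 were higher in T, and in A 1 was higher and 2 were lower. That fit called 3.46% of paired genes in T and 9.78% in A. After quantile normalization 7 were higher in T, and in A 2 were higher and none was lower. The share of paired genes was not computed there.

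Hormone carriers in plasma and transporters at the membrane come before the receptor. SERPINA7, thyroxine-binding globulin, was higher in T by 0.56 ± 0.18 (limma adjusted p = 0.0434). It did not pass with the block, at 0.66 (limma adjusted p = 0.269), or on A1 alone, at 0.92 (limma adjusted p = 0.148). TTR, transthyretin, was lower in A, at -1.32 ± 0.24 (limma adjusted p = 0.00165) and stood at -0.57 ± 0.24 in T (limma adjusted p = 0.125). The decrease of TTR in A was kept with the block, at -1.46 ± 0.30 (limma adjusted p = 0.00703), and lost after quantile normalization at -0.74 ± 0.26 (limma adjusted p = 0.0797). ALB, albumin, stood at 0.56 ± 0.20 in T (limma adjusted p = 0.0707), and passed at 0.63 after quantile normalization (limma adjusted p = 0.0389). Both listed transporters with a paired symbol, which also carry bile acids, were higher in T: SLCO1B3 by 1.51 ± 0.34 (limma adjusted p = 0.00631) and SLCO1A2 by 0.65 ± 0.17 (limma adjusted p = 0.0166). With the block, SLCO1A2 was higher by 0.97 in T (limma adjusted p = 0.0268) and by 0.73 in A (limma adjusted p = 0.0494), and SLCO1B3 did not pass at 1.18 (limma adjusted p = 0.300). SLCO1A2 was dim, with mean levels of -2.32 in T, -2.50 in A, and -2.97 in P, so its differences rest on little signal.

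Inside the cell, CRYM, a thyroid hormone-binding protein of the cytosol, was higher in T by 1.07 ± 0.20 (limma adjusted p = 0.00140) and in A by 0.64 ± 0.20 (limma adjusted p = 0.0494). With the block its difference was 0.55 in T (limma adjusted p = 0.358) and 0.21 in A (limma adjusted p = 0.794). SULT1A1, a sulfotransferase, was lower in A, at -1.23 ± 0.26 (limma adjusted p = 0.00503) and with the block, at -1.59 (limma adjusted p = 0.00426). After quantile normalization it stood at -0.90 ± 0.28 (limma adjusted p = 0.0545). Of the receptor's coregulators, MED6, SRA1, and THRAP3 did not pass against P, except that MED6 was higher in A by 0.68 after quantile normalization (limma adjusted p = 0.0334). THRAP3 was higher in T than in P by 0.99 ± 0.24 with the block (limma adjusted p = 0.0428) and higher in T than in A by 0.96 ± 0.17 (limma adjusted p = 0.00809, with 6.09% of paired genes called), against 0.34 and 0.84 without it. GPS2, a corepressor subunit, lay between -0.77 and 0.18 on all 18 A1 arrays. On the 6 A2 membranes it was at -7.56 to -4.32 on 4 and without signal above background on 2. Its value of 3.18 in T minus P therefore rests on 5 of the 7 P animals and on A2 levels near the floor. That value did not pass (limma adjusted p = 0.0540), but did after quantile normalization (limma adjusted p = 0.0433). The same difference stood at -0.52 with the block (limma adjusted p = 0.775) and at -0.02 on A1 alone (limma adjusted p = 0.997).

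Among genes that thyroid hormone is known to regulate in liver or other tissues, 10 of 26 were paired. In T relative to P, 4 were higher, 5 lower, and 1 did not pass, with a median of -0.16 beside -0.05 over the paired genes, of which 25.6% were higher and 21.7% lower. In A, 2 were higher and 4 lower, with a median of -0.38 beside -0.27 over the paired genes, of which 12.1% were higher and 26.4% lower. In the block fit 1 was higher and 3 lower in T, and 1 was higher and 4 lower in A. That fit called 3.46% of paired genes in T and 9.78% in A. Of the genes that fell in T, 4 fell in A as well. They included THRSP, a lipogenic nuclear protein, FASN, fatty acid synthase, and ACLY, which makes cytosolic acetyl-CoA for lipid synthesis. THRSP ranged from 5.34 to 7.49 in T, 4.40 to 6.47 in A, and 7.32 to 9.09 in P. Its difference was -1.89 ± 0.30 in T (limma adjusted p = 0.000318) and -2.79 ± 0.31 in A (limma adjusted p = 5.26e-06), and -1.91 and -2.81 with the block, both passing. FASN stood at -2.09 ± 0.31 in T and -2.42 ± 0.32 in A, and passed in both with and without the block. ACLY stood at -2.89 ± 0.56 in T (limma adjusted p = 0.00205) and -2.84 ± 0.57 in A (limma adjusted p = 0.00301). With the block it was -2.82 in T, which did not pass (limma adjusted p = 0.0744), and -2.78 in A (limma adjusted p = 0.0330). Its P levels ranged widely, from -0.56 to 5.18.

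The genes that rose in both were PCK1 and G6PC, enzymes of glucose production. PCK1 was higher by 3.48 ± 0.52 in T (limma adjusted p = 0.000144) and by 2.44 ± 0.54 in A (limma adjusted p = 0.00607), and passed with the block at 3.68 and 2.60. G6PC was higher by 1.13 ± 0.23 in T (limma adjusted p = 0.00369) and by 0.995 ± 0.24 in A (limma adjusted p = 0.0110). With the block G6PC passed in neither, at 1.12 in T (limma adjusted p = 0.0891) and 0.99 in A (limma adjusted p = 0.0799). KLF9, a transcription factor that the thyroid hormone receptor induces, was higher in T by 0.63 ± 0.21 (limma adjusted p = 0.0498). It stood at 0.29 with the block and did not pass after quantile normalization (limma adjusted p = 0.0715). ATP2A2, a calcium pump, was higher in T by 0.80 ± 0.17 (limma adjusted p = 0.00532) and stood at 0.47 with the block (limma adjusted p = 0.452). Genes such as FASN and PCK1 are also known to respond to feeding and insulin. THRSP, FASN, and PCK1 were called with the block in both T and A. On A1 alone, of these 3 only FASN passed in both. THRSP passed there in A (limma adjusted p = 0.0164) and not in T (limma adjusted p = 0.145). PCK1 passed there in T (limma adjusted p = 0.0230) and not in A (limma adjusted p = 0.180).

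THRA was the only nuclear receptor of 48 listed that had a paired symbol, and GHR and IL6ST were 2 of 29 type I cytokine receptors. IL6ST did not pass, with 0.42 ± 0.19 in T (limma adjusted p = 0.159) and -0.11 ± 0.20 in A (limma adjusted p = 0.778), and in A it stood at 0.39 after quantile normalization. The symbols cover only genes that the study selected, so the other receptors were not analysed here.

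Of the 12 hepatocyte markers, 6 were lower in A than in P and none was higher, and 3 had a difference above 0. The median difference was -0.80, beside -0.27 over the paired genes, of which 26.4% were lower. In the block fit 3 were lower in A, where 9.78% of paired genes were called. On A1 alone none passed (limma, 5 with an unadjusted p under 0.05), with a median of -0.74 beside -0.18 over the paired genes. After quantile normalization 2 were lower and 1 was higher, with a median of -0.28 beside -0.13 over the paired genes. The share of paired genes called was not computed in these 2 settings. Their summed ratio ranged from 461 to 762 in A, 546 to 1381 in T, and 708 to 1070 in P. In T 2 were higher and 3 lower, beside 25.6% and 21.7% of paired genes. With the block 1 was lower in T, where 3.46% of paired genes were called. Of 6 leukocyte markers, 2 were lower in A, and 2 were higher and 1 lower in T, with summed ratios of 12.9 to 19.0 in A, 17.7 to 43.1 in T, and 13.6 to 50.5 in P. Of 6 stromal and endothelial markers, 1 was lower and 1 higher in A and in T, with sums of 3.66 to 4.51 in A, 3.23 to 4.91 in T, and 3.11 to 5.17 in P. Of 8 muscle markers, 2 were higher in A, and 3 were higher and 2 lower in T, with sums of 4.61 to 5.93 in A, 4.82 to 5.49 in T, and 4.19 to 5.22 in P. Of 2 red blood cell markers, 1 was lower in T, with sums of 1.51 to 8.31 in T, 1.03 to 2.79 in A, and 2.17 to 3.23 in P. In the block fit, 1 leukocyte marker was lower in A, and no other of these leukocyte, stromal, muscle, and red blood cell markers passed in A or T (limma). An unadjusted p under 0.05 was then held in A by 2 leukocyte, 1 stromal and endothelial, and 1 red blood cell marker, and in T by 1 leukocyte, 2 muscle, and 1 red blood cell marker. Their part in the GHR and THRA differences was not tested. In bulk tissue, fewer cells of a type and less RNA per cell cannot be told apart.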

How the data were processed

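The authors read each membrane with ImaGene 6.1.0 and deposited the intensity of every spot and its local background. They also deposited a linear ratio of background-subtracted median signal to the array median. The ratio was recomputed from intensity and log2 transformed, with values at or below 0 missing. Symbols came from the state means listed by the study, matched within 1e-04, for 1329 of 1329 genes. States, and in a second fit the 5 status groups, were compared with limma 3.58.1 (R 4.3.3), with Benjamini-Hochberg adjustment over all probes (9599 in T minus P) and calls at 0.05, and tested on simulated data. Correlations used 100000 permutations, or all pairings under 10 arrays (scipy 1.17.1), and 2-sided p-values. Members and gene lists were chosen with earlier results of these data known. The named genes are both receptors, the paired genes of the axis, response, and receptor lists, and the 3 genes most correlated with each receptor. Alternatives were quantile normalization, normexp (offset 50), a floor for values at or below 0, mean pixel values, the deposited ratio, a dim-probe filter (over 2 times background on at least 7 arrays), filter set and prefix blocks, A1 only, 5 groups, the methods' test, and leaving out each array. Block fits after quantile normalization or normexp were chosen after seeing the data. RNA was amplified, labelled, and hybridized in a single batch. The number of arrays limits precision. With 1 membrane and 1 spot per animal, the spread behind the p-values mixes animals with membranes and spots. No sequences were used here. Some genes of the lists and of the naming rule are counted but not reported here by name.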

Additional observations from a re-analysis of the deposited data

Results flagged for a closer look

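Among 33 genes, 109 groups of 4 to 9 arrays were examined for an array far from the others, and 4 were found. Chance alone gives about 1 in 20 groups. Neither GHR nor THRA was among them. GPS2 in A was lowest, at -7.431, in late arousal replicate 2, the animal on an A2 membrane, with the next at -0.67. PDPK1 in A was lowest in the same animal, at -2.505, with the next at -1.63. KLF9 in A was highest in early arousal replicate 4, at 2.482, with the next at 1.49. ACLY in T was highest in early torpor replicate 4, at 1.127, with the next at -0.55.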

How the results depend on the processing

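With the filter set as a block, on A1 filters only, and with the identifier prefix as a block, GHR in T minus P stood at -0.44, -0.54, and -1.06, and with normexp at -0.73, and none of these passed. GHR in A minus P stood at -0.93 with the filter set block and -1.06 on A1 filters, without passing. The adjusted p of the F-test for GHR was 0.196 and 0.199 in these settings. For THRA it was 0.0631, 0.127, and 0.114 with the filter set block, A1 filters, and the prefix block. THRA in T minus P stood at 0.72, 0.78, and 0.36 in these same settings, without passing. THRA in A minus P turned to -0.0108 with the prefix block. THRA in T minus A passed by the methods' test at 0.34. GHR in early arousal minus P lost its call at -0.95 with the filter set block and at -1.04 on A1 filters, and GHR in early arousal minus late arousal turned to 0.0295 on A1 filters. THRA in early torpor minus P passed with mean pixel values at 0.63. The correlation of GHR with THRA turned to 0.0228 on A1 filters.

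The numbers of genes called in T minus P fell to 0 with the filter set block and 0 on A1 filters in the growth hormone list, to 2 and 1 in the thyroid hormone axis, and to 4 and 3 among response genes. Over all probes, 0.969% and 0.896% were called in these settings, and 3.46% of paired genes with the block. In A minus P the numbers of list genes were 0 and 0 in the growth hormone list, and on A1 filters 0 in the thyroid hormone axis and 3 among response genes. In T minus A, 1 thyroid axis gene was called with the block and 1 on A1 filters, and 1 growth hormone list gene on A1 filters. With the block, 9.78% of paired genes were called in A minus P and 6.09% in T minus A. Shares of paired genes on A1 filters were not computed, so the A1 counts are a description only.

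Leaving out each array gave -1.10 to -0.73 for GHR in T minus P, -1.22 to -0.85 in early torpor minus P, -1.64 to -1.23 in early arousal minus P, -1.50 to -0.98 in late arousal minus P, -0.085 to 0.44 in early torpor minus late arousal, and -0.46 to 0.0603 in early arousal minus late arousal. For THRA it gave 0.58 to 0.70 in early torpor minus P, and 0.0171 to 0.0562 for the adjusted p of the F-test. Fewer P arrays enter the A1 fit, and otherwise the cause was not tested. Under the settings other than leaving out an array, the remaining 251 values kept their direction and side of the threshold. The 2 P animals on A1 limit every comparison within a filter set, and both spots were over 2 times their background on every array. No paired analysis was possible because each array carried a different animal, and the replicate numbers used here only name the arrays and are not given by the labels.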
